A study of Mus musculus with 12 samples.

Results

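The apolipoprotein genes of the liver were followed in wild-type (WT) mice and in mice lacking selenocysteine lyase (Scly KO). The 10 genes Apoa1, Apoa2, Apoa4, Apoa5, Apob, Apoc1, Apoc2, Apoc3, Apoe and Apoh were taken by symbol from the gene-level count table, 10 of its 24795 genes, and all 10 passed the filter on low counts. All animals were male. The WT mice were C57BL/6N bred in-house, and the Scly KO mice came from a homozygous knockout colony, for which no strain is stated in the sources used here. From weaning and for at least 8 weeks they ate a diet with sodium selenite giving 0.08 ppm of selenium (mildly low, LS) or 0.25 ppm (adequate, MS). Poly(A) RNA of the liver was sequenced in 12 libraries, numbered S1 to S12. They form 4 groups of 3, namely WT LS (S1 to S3), WT MS (S4 to S6), KO MS (S7 to S9) and KO LS (S10 to S12). Whether each library came from its own mouse is not stated in the labels, so that p-values reflect library-to-library spread. The question was whether the genotype, the selenium supply or both together alter the apolipoprotein transcripts of the liver. Scly KO mice are known for disturbed blood lipids.

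Apolipoproteins are the protein part of lipoproteins, the particles that carry triglyceride and cholesterol through the blood. Apob is the structural protein around which the liver builds very low density lipoprotein (VLDL), while Apoa1 and Apoa2 are the main proteins of high density lipoprotein (HDL). The smaller exchangeable apolipoproteins move between particles and set how fast they are emptied by lipoprotein lipase or taken up by receptors. Hepatocytes make nearly all of them in quantity, so that these genes are among the most abundant transcripts of the organ.

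In mm10 coordinates, which are those of GRCm38, 7 of the 10 genes lie in a pair of clusters. Apoa1, Apoc3, Apoa4 and Apoa5 occupy 43.3 kb of chromosome 9 (46228630 to 46271921). Apoc2, Apoc1 and Apoe occupy 27.6 kb of chromosome 7 (19671579 to 19699188). The other members are single genes, Apoa2 on chromosome 1 (171221564 to 171226379), Apob on chromosome 12 (7977677 to 8016839) and Apoh on chromosome 11 (108395297 to 108414396). RefSeq windows on GRCm38.p6 matched 8 members, and Apoc1 and Apoc3 had no entry. The 250 bases before the transcript start are printed for 3 of them. Apoa1 and Apoa4 share a cluster but had opposite values in S12, and Apob had values opposite to those of most shorter members in several libraries. They are given 5′ to 3′ on the gene's strand, which is the plus strand in each case, and capitals mark the TATA box TATAAA.
Apoa1, chr9:46228380-46228629: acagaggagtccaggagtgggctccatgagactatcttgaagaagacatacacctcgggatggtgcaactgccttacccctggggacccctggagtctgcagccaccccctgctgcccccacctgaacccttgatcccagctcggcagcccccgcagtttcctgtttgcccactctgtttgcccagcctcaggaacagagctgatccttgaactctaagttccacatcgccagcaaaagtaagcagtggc
Apoa4, chr9:46240594-46240843: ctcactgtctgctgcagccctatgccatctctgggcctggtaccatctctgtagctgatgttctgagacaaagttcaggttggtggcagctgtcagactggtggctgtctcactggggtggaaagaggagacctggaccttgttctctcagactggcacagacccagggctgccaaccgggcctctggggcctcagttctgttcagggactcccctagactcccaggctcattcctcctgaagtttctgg
Apob, chr12:7977427-7977676: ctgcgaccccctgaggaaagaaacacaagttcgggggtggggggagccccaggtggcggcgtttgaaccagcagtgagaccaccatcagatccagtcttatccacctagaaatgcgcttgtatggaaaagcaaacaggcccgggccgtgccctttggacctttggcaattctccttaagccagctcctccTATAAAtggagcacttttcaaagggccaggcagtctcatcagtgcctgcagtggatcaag

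Exact letters of 3 motifs were searched in these windows. TATAAA on the gene's strand stood in Apob, at −60 to −55 from the start, and in Apoa5, against 7.59% of all 32851 windows of this length. AGGTCA, bound by nuclear receptors, stood on either strand in Apoa2, Apoc2 and Apoh, 3 of 8 members, against 14% of all windows. CAAAGTCCA, a motif of the hepatocyte factor HNF4, stood in 0 of 8 members and in 0.384% of all windows. Variants of these letters were not searched, so that a missing match does not show that HNF4 sites are absent. These motifs share no letters by overlap in the members, and a match is only a description of the letters.

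The libraries held 4797067 (S1) to 11762165 (S12) counts. Scly, the deleted gene, was at 78 ± 5 counts per 1000000 normalized counts (CPM) in WT LS and 95 ± 9 in WT MS (SD, n = 3), and at 4.84 to 6.9 CPM in the 6 Scly KO libraries, as their labels state. Some libraries stood apart. Rn45s, a ribosomal RNA precursor that poly(A) selection should remove, took 17.0% of the counts of S7 and 19.9% of S8, against 2.45% to 9.23% elsewhere. In S12, 16186 genes had a count, against 14044 to 14952 elsewhere, and the summed level of 10 bile duct cell markers, of which 0 were at 0 throughout, was 311 CPM. It was 27.9 to 46.9 CPM in the other libraries, with 30.0 to 46.9 in WT LS, 27.9 to 36.1 in WT MS and 30.0 to 38.1 in KO MS. The 12 hepatocyte markers summed to 64200 CPM in S12 and 64300 in S1, against 95500 to 117000 in the others. The livers were hepatocyte-rich in all 12 libraries, but fewer hepatocytes and less RNA per hepatocyte cannot be told apart in such samples. These values are given beside the results they move with.

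Levels of different genes were compared as CPM per kilobase of transcript. On that scale Apoe stood highest, at 8780 ± 1330 (mean and SD over the 12 libraries), followed by Apoa1 at 7580 ± 2840, Apoa2 at 6540 ± 1680 and Apoc1 at 6410 ± 3030. These 4 overlapped in their ranges, although Apoa1 was below Apoe in 10 of 12 libraries, Apoa2 below Apoa1 in 8 and Apoc1 below Apoa2 in 9. Apoc3 followed at 2130 ± 899 CPM per kilobase and was below Apoc1 in 12 of 12 libraries. Apoa4 came next at 1490 ± 978, then Apoh at 1250 ± 267, Apob at 951 ± 301, Apoa5 at 786 ± 201 and Apoc2 at 519 ± 254. Apoh was below Apoa4 in 6 of 12 libraries, so that these neighbours had no stable order. Apob is low in this order because its transcript has 13934 bases. By plain CPM, without regard to length, Apob ranked at 5 and Apoe at 7 among all tested genes.

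**Figure D1:**
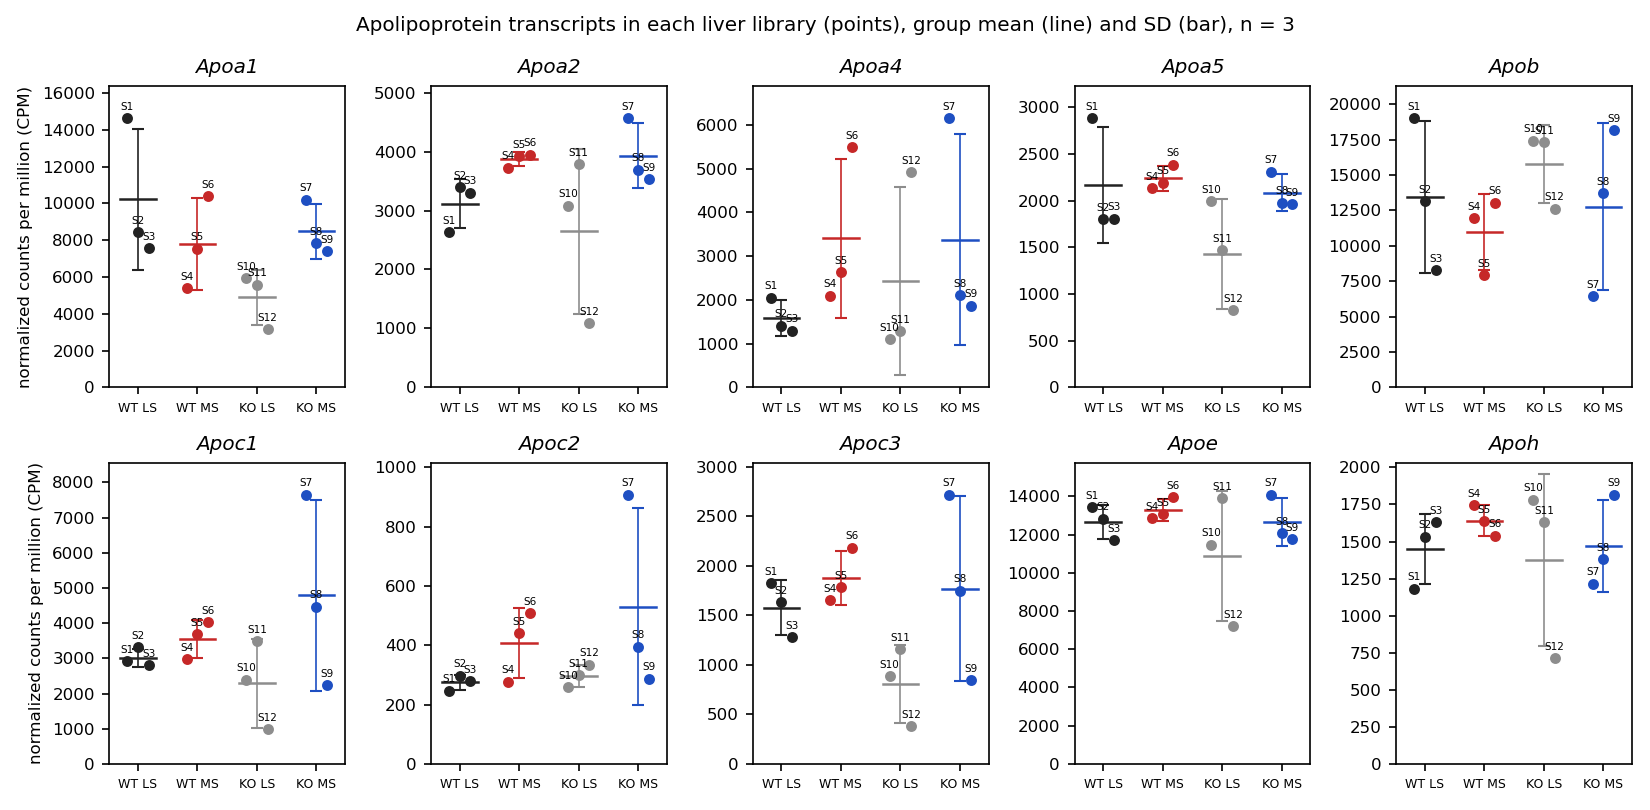
Normalized CPM of the 10 apolipoprotein transcripts (vertical axes, each from 0) in the 4 groups. Points are libraries, lines are group means and bars are SD with n = 3. S12 is the lowest point in 7 panels and S7 the highest in 6, while Apoa1 lies lower in all 3 KO LS libraries (3170 to 5936 CPM) than in any WT LS library (7575 to 14624 CPM).

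The 10 genes together took 4.01% to 5.57% of all deposited counts. The summed share was 5.57%, 4.67% and 4.07% in WT LS, 4.71%, 4.54% and 5.22% in WT MS, 4.22%, 4.01% and 5.38% in KO MS, and 4.97%, 5.17% and 4.92% in KO LS, in the order of library numbers. Its group means were 4.77% ± 0.755, 4.82% ± 0.354, 4.54% ± 0.738 and 5.02% ± 0.132 (SD, n = 3). The groups overlapped, with the lowest shares in S8 and S3. With Rn45s left out of the total the means were 5.16%, 5.13%, 5.21% and 5.21%, so that the lower mean of KO MS moved with the share of Rn45s in S7 and S8.

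**Figure D2:**
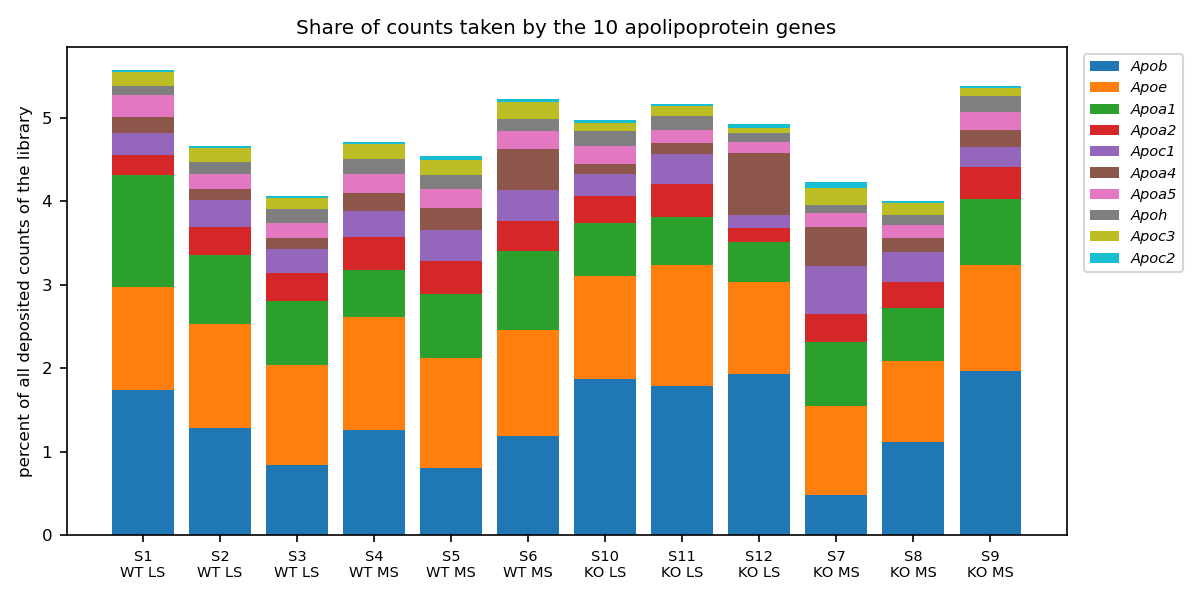
Percent of all deposited counts of a library (vertical axis) taken by each apolipoprotein gene, stacked, in the 12 libraries ordered by group. The sum stays between 4.01% and 5.57%, while the part taken by Apob (bottom) is smallest in S7 and that taken by Apoa1 is smallest in S12.

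The make-up of this share differed more than its size. Apob, Apoe and Apoa1 held 54.6% (S7) to 77.4% (S1) of the counts of the 10 genes. Apob alone held 11.4% of them in S7 and 39.2% in S12. For each Apoa1 count there were 1.3, 1.56 and 1.09 Apob counts in WT LS and 2.22, 1.05 and 1.26 in WT MS. The ratio was 0.63, 1.75 and 2.45 in KO MS and 2.93, 3.1 and 3.98 in KO LS. All 3 KO LS libraries thus lay above the other 9, with S9 of KO MS the nearest. The ratio sets a transcript of 13934 bases (Apob) against 1035 bases (Apoa1). The Spearman correlation of a library's levels with transcript length, described below, was 0.39, 0.30 and 0.37 in KO LS and 0.45 in S9. It was 0.21 in S4, with a ratio of 2.22, and −0.51 in S7, with the lowest ratio. The part of length in the ratio was not tested. This ratio was described after its values were seen and was not tested.

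Apob, the VLDL structural protein, was at 18997, 13137 and 8262 CPM in WT LS, 11964, 7904 and 13048 in WT MS, 6431, 13719 and 18139 in KO MS, and 17420, 17302 and 12626 in KO LS. Group means were 13465 ± 5375, 10972 ± 2712, 12763 ± 5912 and 15783 ± 2735 CPM (SD, n = 3). The values overlapped between all groups, and the 3 KO MS libraries alone ran from the lowest value of the 12 (S7) to the second highest (S9).

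Among the HDL proteins, Apoa1, the main HDL protein and activator of cholesterol esterification, was at 14624, 8436 and 7575 CPM in WT LS. It was at 5400, 7540 and 10397 in WT MS, 10204, 7828 and 7412 in KO MS, and 5936, 5590 and 3170 in KO LS. The means were 10212 ± 3845, 7779 ± 2507, 8481 ± 1506 and 4898 ± 1507 CPM (SD, n = 3), with KO LS below both WT LS and KO MS in every library. Apoa2, the second protein of HDL, was at 2638, 3401 and 3305 CPM in WT LS, 3729, 3922 and 3946 in WT MS, 4564, 3695 and 3530 in KO MS, and 3080, 3785 and 1085 in KO LS. Its WT MS libraries lay close together (mean 3866 ± 119 CPM) and above those of WT LS (3115 ± 416 CPM).

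Apoa4, found on HDL and on triglyceride-rich particles, varied most of the 10, with an SD of 0.85 of log2 CPM over the 12 libraries. It was at 2049, 1413 and 1296 CPM in WT LS, 2098, 2642 and 5492 in WT MS, 6154, 2114 and 1871 in KO MS, and 1097, 1280 and 4920 in KO LS. In each of WT MS, KO MS and KO LS a single library (S6, S7 and S12) was over the rest of its group, and these 3 were the highest of all. Apoa4 is also made by the intestine. The summed level of 8 enterocyte markers, with Sis, Alpi, Cdx1 and Cdx2 at 0 in every library, was 139 CPM in S12, the lowest of the 12, and 413 CPM in S7, the highest, against 188 to 256 elsewhere. Of these markers 2 passed the filter on low counts, Fabp2 and Anpep. Fabp2 was at 384 CPM in S7 and 35.7 in S12, its highest and lowest values. Anpep was at 29.4 CPM in S7, its lowest value, and 102 in S12. The part of the enterocyte markers in the Apoa4 values was not tested.

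The remaining exchangeable apolipoproteins act on triglyceride clearance. Apoa5, which promotes lipolysis by lipoprotein lipase, was at 2881, 1801 and 1807 CPM in WT LS, 2136, 2193 and 2386 in WT MS, 2311, 1977 and 1961 in KO MS, and 1992, 1468 and 824 in KO LS. Apoc2, the cofactor that lipoprotein lipase requires, was the least abundant, at 247, 297 and 280 CPM in WT LS, 277, 440 and 507 in WT MS, 907, 395 and 287 in KO MS, and 259, 298 and 334 in KO LS. Both genes had overlapping groups in every comparison, and the high KO MS mean of Apoc2 (530 ± 332 CPM) came with a single value, that of S7.

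Apoc3, which inhibits lipoprotein lipase and slows the uptake of remnants, was at 1823, 1634 and 1276 CPM in WT LS, 1654, 1786 and 2181 in WT MS, 2716, 1748 and 844 in KO MS, and 886, 1155 and 378 in KO LS. Its means were 1577 ± 278, 1874 ± 275, 1769 ± 936 and 806 ± 394 CPM (SD, n = 3), and KO LS lay below WT LS in every library. Apoc1, which also inhibits lipase and receptor uptake, was at 2927, 3310 and 2800 CPM in WT LS, 2969, 3679 and 4027 in WT MS, 7647, 4468 and 2247 in KO MS, and 2393, 3491 and 981 in KO LS. Within KO MS, S7 and S9 lay at opposite ends for both Apoc1 and Apoc3.

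Apoe, the ligand by which remnants bind the LDL receptor and its relatives, was the steadiest of the 10, with an SD of 0.26 of log2 CPM. It was at 13448, 12838 and 11693 CPM in WT LS, 12865, 13069 and 13960 in WT MS, 14080, 12086 and 11769 in KO MS, and 11466, 13910 and 7200 in KO LS. Apoh, a phospholipid-binding plasma glycoprotein also involved in coagulation, was at 1181, 1533 and 1629 CPM in WT LS, 1745, 1638 and 1540 in WT MS, 1215, 1380 and 1815 in KO MS, and 1782, 1632 and 711 in KO LS. For both, 11 libraries lay within a narrow band and S12 lay below it. S12 was the lowest library for Apoa1, Apoa2, Apoa5, Apoc1, Apoc3, Apoe and Apoh, while Apoa4 was high and Apob and Apoc2 were near their means there. The bile duct and hepatocyte marker sums of S12 moved with this. S1, with a hepatocyte sum of 64300 CPM against 64200 in S12, was the highest library for Apoa1, Apob and Apoa5. In S1, 5 members lay above their own mean and 5 below. The part of these cells was not tested.

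On low selenium, Scly KO livers had lower mean levels of 7 of the 10 apolipoproteins than WT livers, with the 2 largest differences in Apoa1 and Apoc3, but 0 of 10 passed the test. Apoa1 was lower by a log2 fold change of −1.06 (SE 0.405, edgeR quasi-likelihood test, Benjamini-Hochberg adjusted p = 0.439) and Apoc3 by −0.97 (SE 0.45, adjusted p = 0.443). Both were lower in 3 of 3 KO LS libraries than in any WT LS library. Apoe had −0.22, Apob 0.23 and Apoa4 0.62, the latter from S12 alone, since it was −0.44 without S12. The share called among all 12009 tested genes was 0.00833% (1 gene, Scly itself). At an unadjusted p under 0.05 there was 1 of 10 members (Apoa1) against 11.2% of all genes, and groups did not overlap for 2 of 10 (Apoa1 and Apoc3) against 24.9% of all genes, so that neither count stands apart from the background. DESeq2 called 0 members and 0.391% of all genes, and limma-voom 0 members and 0.749%. Without S12 the fold change of Apoc3 was −0.66 and that of Apoa1 −0.85, and without S1 that of Apoa1 was −0.71.

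The median log2 fold change of the 10 genes was −0.23, against 0.06 for all tested genes, of which 54.2% lay above 0. Without S12 this median was −0.04. With the dependence on transcript length and GC taken out of each library it was 0.01, with 5 members below 0, and with limma-voom −0.08, with 8 below. With the dependence taken out Apoa1 had −0.78, Apoc3 −0.58 and Apob −0.05. Length and GC were removed together, so that their parts cannot be told apart here.

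On adequate selenium, no member separated Scly KO from WT livers. Apoa1, low in KO LS, had 0.12 (edgeR adjusted p = 0.999), Apoc3 had −0.08 and Apoc1 0.43, the largest of the 10. The median was 0.01, with 5 members above 0 and 5 below. By edgeR 0 of 10 were called against 0.00833% of all genes, and 0 of 10 had an unadjusted p under 0.05 against 0.924%. DESeq2 called 0 against 0.025%, limma-voom 0 against 7.54%, and groups did not overlap for 0 of 10 against 4.72%. This even split depended on single libraries, since 9 of 10 lay below 0 (median −0.12) without S7, and the median was 0.21 with 3 below 0 without S6. Without S7 the value of Apoc1 was −0.08. Averaged over both diets, Apoc3 had the largest difference between genotypes (−0.53), with 0 of 10 called against 0.00833% of all genes. At an unadjusted p under 0.05 there were 0 against 3.74%, with DESeq2 0 against 0.225% and with limma-voom 0 against 0.566%.

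**Figure D3:**
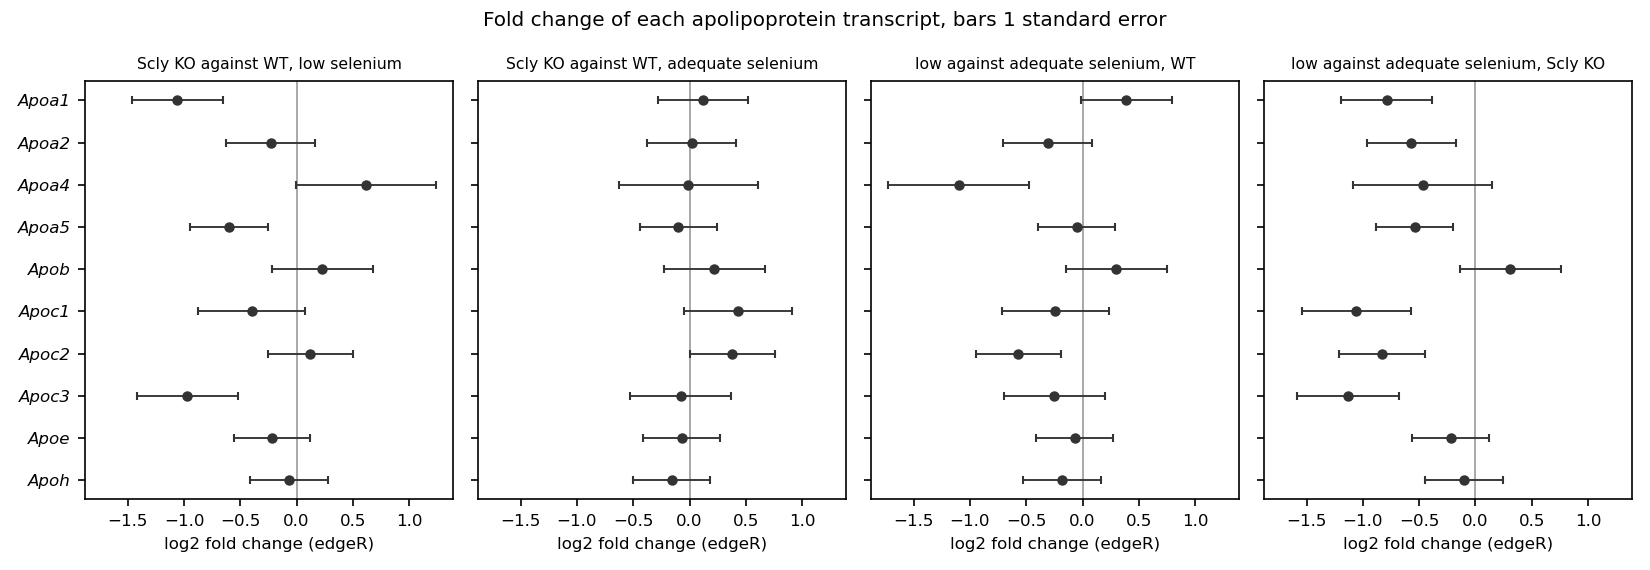
Log2 fold change from edgeR (horizontal axes) of each apolipoprotein in the 4 pairwise comparisons. Points are estimates and bars are 1 standard error, with n = 3 libraries a group. Apoa1 and Apoc3 lie near −1 in Scly KO on low selenium and near 0 on adequate selenium, and no gene passed the adjusted threshold.

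Low against adequate selenium in WT mice gave lower means for 8 of 10 genes, with the largest value in Apoa4 (−1.10, edgeR adjusted p = 1). Apoa4 and Apoa2 (−0.31) were lower in 3 of 3 WT LS libraries than in any WT MS library. That is 2 of 10 members whose groups did not overlap, against 11.7% of all genes. The Apoa4 difference was smaller without S6 (−0.56). By edgeR 0 of 10 were called, against 0% of all genes, and 0 of 10 had an unadjusted p under 0.05 against 2.29%. DESeq2 called 0 against 0.0167% and limma-voom 0 against 0.15%.

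In Scly KO mice low selenium went with lower means for 9 of the 10 genes, Apob being the exception, and the differences were largest in the C apolipoproteins that govern triglyceride clearance. Apoc3 had −1.13 (SE 0.452, edgeR adjusted p = 0.208), Apoc1 −1.06 (adjusted p = 0.225) and Apoc2 −0.83 (adjusted p = 0.225). Apoa1 had −0.79 (adjusted p = 0.246) and was the only member lower in 3 of 3 KO LS libraries than in any KO MS library, 1 of 10 against 10.9% of all genes. The median was −0.56, against 0.06 for all genes. It was −0.34 without S7, −0.16 with 7 of 10 below 0 without S7 and S8, and −0.06 without S12 as well. By edgeR 0 of 10 were called against 0% of all genes, and 3 of 10 had an unadjusted p under 0.05 against 21.9%. DESeq2 called 0 of 10 against 1.07%. Limma-voom with sample weights called 4 of 10 (Apoa4, Apoc1, Apoc2 and Apoc3) against 49.9% of all genes, so that this count is within the background of that setting. Its weights were 0.416, 6.67 and 0.199 for S7, S8 and S9, and 1.99, 1.21 and 0.144 for S10, S11 and S12. The KO MS level of that setting thus rested mostly on S8, and S12 had little part in KO LS. The same weights hold for every limma-voom result given here.

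The differences in the C apolipoproteins depended on which KO MS libraries were kept. S7 and S8, the libraries with the most Rn45s, were left out together. Against S9 alone, which is then the only KO MS library and is assumed to vary like the other groups, Apoc1 had 0.03, Apoc2 0.04 and Apoc3 −0.07, while Apoa1 kept −0.60. Without S9, edgeR called 3 of 10 (Apoc1, Apoc2 and Apoc3, adjusted p = 0.036, 0.0281 and 0.0209), together with 3979 of all genes. Without S7 the value of Apoc2 was −0.21, that of Apoc1 −0.57 and that of Apoc3 −0.70. Without S8 alone the values of Apoc2, Apoc1 and Apoc3 were −1.03, −1.13 and −1.16. With the length and GC trend removed, Apoc1 had −0.34, Apoc2 −0.25, Apoc3 −0.58 and Apoa1 −0.51.

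Markers of other cell types moved with this comparison. All 7 tested erythroid markers of 8 were below 0 (median −1.53), with summed levels of 1820, 1410 and 636 CPM in KO MS and 548, 522 and 316 in KO LS. Hbb-bt and Hbb-b2 among them had the same values in every library, so that the 7 are not separate signals. The Kupffer cell and macrophage markers were below 0 in 9 of 11 tested (of 13), with sums of 617, 483 and 311 CPM in KO MS and 296, 291 and 334 in KO LS. The 3 tested lymphocyte markers of 8 were all below 0 (median −1.08). The summed level of the 8 was 35.3, 30.4 and 13.4 CPM in KO MS. In KO LS this sum was lowest in S10, 13.2 CPM in S11 and 30.2 in S12, so that the groups overlapped. S7 and S8 were thus high in blood and macrophage transcripts as well as in Rn45s, and the part of these cells in the apolipoprotein values was not tested.

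Averaged over genotypes, Apoc2 had −0.70 (edgeR adjusted p = 0.374) and Apoc3 −0.69 (adjusted p = 0.374) on low selenium. By edgeR 0 of 10 were called against 0.00833% of all genes, and 2 of 10 had an unadjusted p under 0.05 against 13.3%. DESeq2 called 0 against 0.025%, and limma-voom called the same 4 members as in Scly KO mice against 41.3% of all genes. Without S9 edgeR called 1 member, Apoc2, together with 2200 of all genes. Without S7 Apoc2 had −0.38. The difference between the diet effects of both genotypes was largest for Apoa1, at −1.18 (edgeR adjusted p = 0.65). For this interaction 0 of 10 were called by edgeR against 0% of all genes, 0 had an unadjusted p under 0.05 against 6.73%, DESeq2 called 0 against 0% and limma-voom 0 against 17.3%. These comparisons share libraries, so that their values for a gene are not independent.

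Transcript length moved with the libraries and with some of the members. In each library the Spearman correlation over 11862 genes between transcript length and the deviation of log2 CPM from the gene's mean was computed, as a description. It was −0.07, −0.06 and 0.00 in WT LS, 0.21, −0.34 and −0.37 in WT MS, −0.51, −0.32 and 0.45 in KO MS, and 0.39, 0.30 and 0.37 in KO LS. Longer genes were thus relatively high in S9 and the 3 KO LS libraries and relatively low in S7, S6, S5 and S8. Apob, with by far the longest transcript of the 10, was 0.97 below its mean in S7 and 0.53 above it in S9 on the log2 scale. The short Apoc1 (532 bases) was 1.31 above its mean in S7 and 0.46 below it in S9. Apoc2 and Apoc3 had the same signs as Apoc1 in both libraries. Other members differed, since Apoa4 (1815 bases) and Apoa5 (2515 bases) were 1.44 and 0.28 above their means in S7. Apoa2, with the shortest transcript (518 bases), was 0.13 above its mean in S9. The part of length alone in the group differences was not tested.

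**Figure D4:**
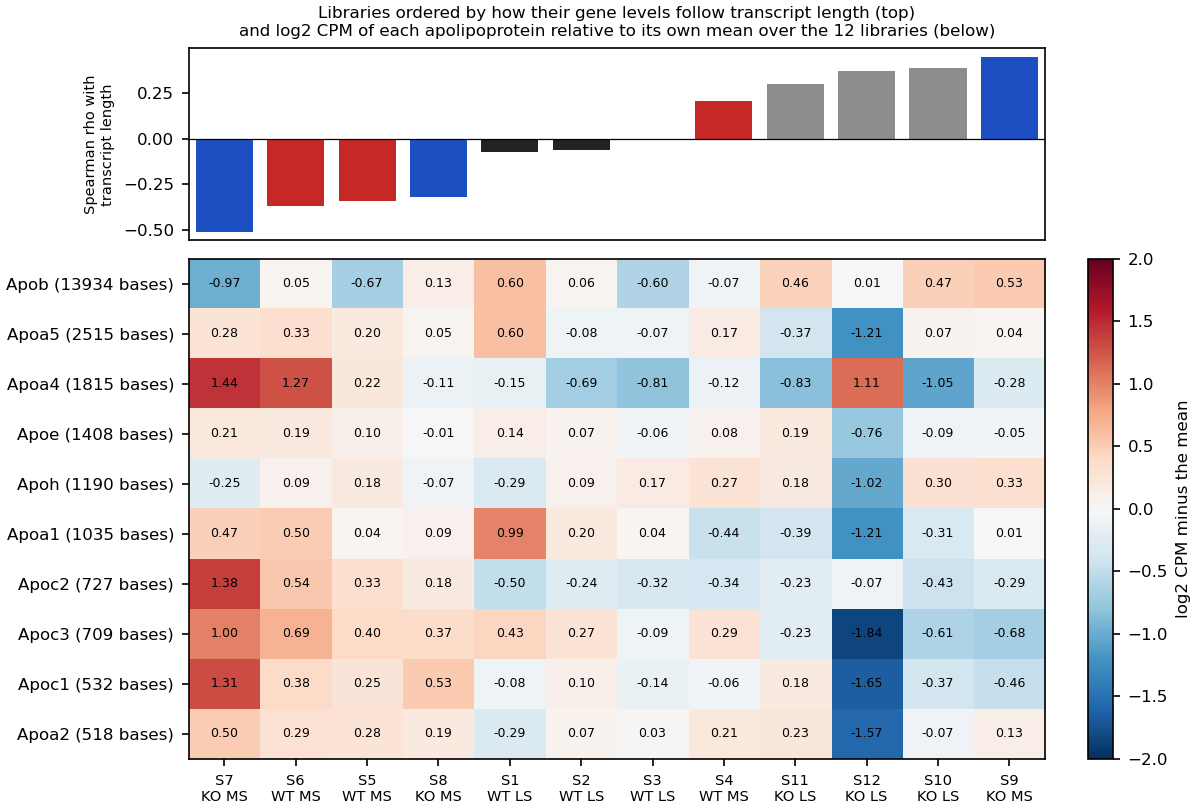
Top, Spearman correlation of each library's gene levels with transcript length (bar, coloured by group), with the libraries sorted by it. Below, log2 CPM of each apolipoprotein minus its mean over the 12 libraries, with genes sorted by transcript length. S7, at the left end with −0.51, is high in the short C apolipoproteins and low in Apob, S9 at the right end with 0.45 shows the opposite, and S12 is low in 7 genes.

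Likeness between members over the 12 libraries was described by the Pearson correlation of log2 CPM. Of all 45 pairs, 32 were positive and 13 negative. Excluding Apoa4, Apob and Apoc2, a choice made after the values were seen, all 21 pairs were positive, from 0.27 (Apoa1 with Apoh) to 0.92 (Apoc1 with Apoc3), with a median of 0.79. These are descriptions, since S12 is low in all 7 genes and the libraries share the trend over length. Within the chromosome 9 cluster the 6 pairs had a median of 0.48, within the chromosome 7 cluster the 3 pairs had 0.64, and the 12 pairs between the clusters had 0.69. The medians within the clusters were thus no higher than the median between them. Apob had negative values with 8 of the 9 other members, down to −0.68 with Apoc2. Apoa4 was most like Apoc2 (0.77) and least like Apoh (−0.58).

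The genes most like Apoa4, the most variable member, were sought among all tested genes with a mean of at least 10 CPM. They were Rhod (Pearson correlation 0.881 over 12 libraries), Mcm7 (0.858), Ifrd1 (0.839), Plscr1 (0.837) and Atf4 (0.835). None of the other apolipoproteins was among these 5.

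The other genes of lipoprotein metabolism were read from 7 lists, and 0 genes of any list were called by edgeR in any comparison. For Scly KO against WT on low selenium, the receptor list (15 tested genes, 10 above 0 and 5 below, median 0.05) held Vldlr, a VLDL receptor that is scarce in normal liver. It was at 1.14, 1.84 and 1.11 CPM in WT LS and 5.88, 8.27 and 4.62 in KO LS, with a log2 fold change of 2.15 (edgeR adjusted p = 0.342, DESeq2 adjusted p = 0.0284, limma-voom adjusted p = 0.0304). The 2 groups did not overlap, as was so for 24.9% of all genes. On adequate selenium it was at 8.55, 3.13 and 2.72 CPM in WT MS and 4.14, 2.51 and 6.23 in KO MS, overlapping KO LS and above all of WT LS. Mylip, which marks the LDL receptor for degradation, had −0.49 and Stab1, a scavenger receptor, −0.38.

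The list of lipases and their regulators (15 tested, 7 above 0 and 8 below, median −0.01) held Angptl6, a secreted angiopoietin-like protein. It was at 26.6, 14.4 and 16.8 CPM in WT LS and 7.05, 9.72 and 4.34 in KO LS, with −1.45 (edgeR adjusted p = 0.342, DESeq2 adjusted p = 0.0144, limma-voom adjusted p = 0.0428). The paper's quantitative PCR of male livers from both diets found no significant effect of genotype on Angptl6. Angptl4, an inhibitor of lipoprotein lipase, was at 206, 144 and 133 CPM in WT LS and 96.4, 107 and 72.3 in KO LS (−0.81, edgeR adjusted p = 0.439). Gpihbp1, which holds lipoprotein lipase on endothelium, had −0.99. All 8 liver endothelial markers were also below 0 (median −0.45), with sums of 441, 400 and 374 CPM in WT LS and 275, 331 and 257 in KO LS, and their part in the Gpihbp1 value was not tested. All 3 KO LS libraries lay below all 3 WT LS libraries for Angptl6, Angptl4 and Gpihbp1. These genes were named for a small p in this same comparison, in which groups did not overlap for 24.9% of all genes.

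In the list of other apolipoproteins and lipoprotein-bound proteins (13 tested, 6 above 0 and 7 below, median −0.08), Apom, an HDL protein that carries sphingosine phosphate, had −0.74 and Apoc4, a neighbour of Apoc2, −1.0. Clu, also found on HDL, had 0.54. The assembly and secretion list (20 tested, 10 above 0 and 10 below, median 0.00) was led by Pla2g12b (−0.69), Sar1b (−1.0), which drives the export of lipoproteins from the endoplasmic reticulum, and Tm6sf2 (0.59). In the efflux and HDL formation list (11 tested, 8 above 0 and 3 below, median 0.05), Abcb4, the phospholipid exporter of bile, had 0.80, Npc1 had 0.66 and Pltp 0.53. None of these passed the threshold by any of the 3 tools.

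Among 25 tested transcriptional regulators of apolipoprotein genes (15 above 0 and 10 below, median 0.17), Esrra had −0.59, Foxa3 −0.52 and Nr1d1 0.81. Among 19 other abundant proteins secreted by hepatocytes (11 above 0 and 8 below, median 0.04), Serpina3k had −1.40, Apcs 0.92 and C3 0.78. Between the diets in Scly KO mice, DESeq2 called Sar1b alone (−1.53, edgeR adjusted p = 0.201, DESeq2 adjusted p = 0.0493). It was at 835, 402 and 200 CPM in KO MS and 197, 237 and 64.4 in KO LS. Its highest value was in S7 and its lowest in S12, as for Apoc3.

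**Figure D5:**
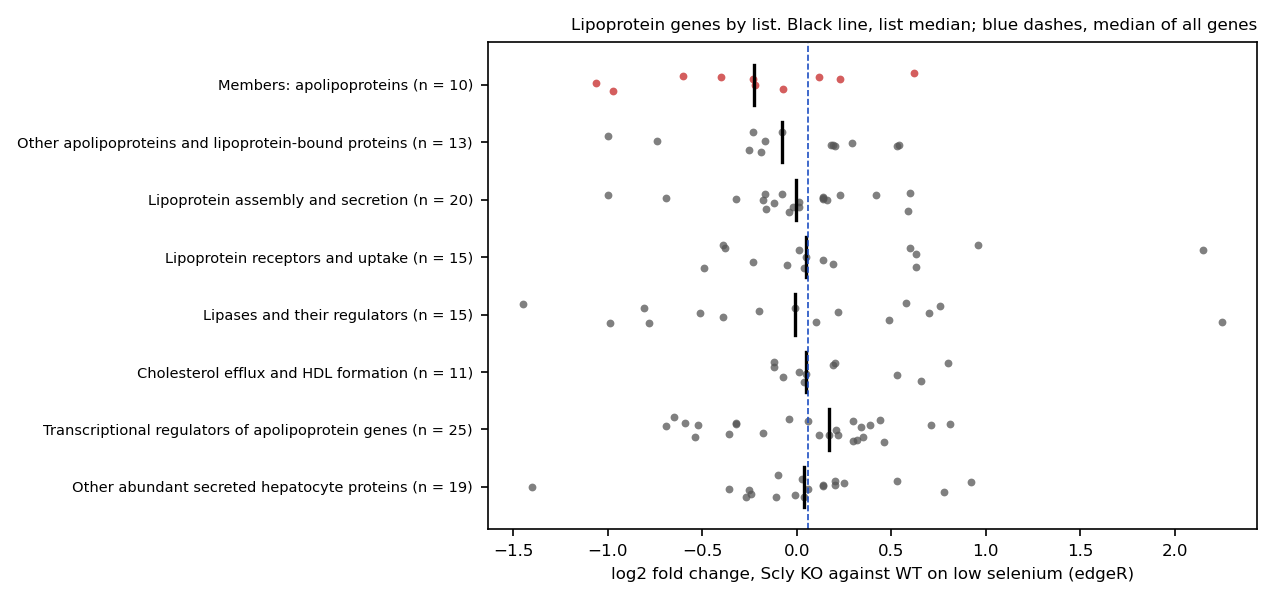
Log2 fold change from edgeR for Scly KO against WT on low selenium (horizontal axis) of each tested gene (points) in the apolipoprotein group (red) and 7 lists of related genes (grey). Black lines are list medians and the dashed line is the median of all tested genes, 0.06. The median of the 10 apolipoproteins is −0.23, those of the 7 lists lie between −0.08 and 0.17, and Vldlr (2.15) and Fgf21 (2.25) are the points farthest to the right. Fgf21 was at 35.3 CPM in S12, against 2.44 in S10, 3.85 in S11 and 1.82, 2.3 and 4.57 in WT LS.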

How the data were processed

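According to the paper's methods, strand-specific libraries were made from poly(A) RNA of livers, and FastQC, Cutadapt, STAR (genome mm10) and the Partek E/M quantifier of Partek Flow were run on the reads. Tool versions: not given in the sources used here. As their result the authors deposited estimated counts per gene, unscaled, of which 91.5% were whole within 0.001. Reads that fit several genes were divided, and Apoa2, Apoa5, Apoc1, Apoc2 and Apoc3 had fractional counts in 10 to 12 libraries, Apoe in 3, and Apoa1, Apoa4, Apob and Apoh in 0. Apoa2 overlaps Tomm40l on the other strand and Apoc2 overlaps Gm44805 on its own strand, and whether counting used the strand is not stated, so that their counts are less certain. A table of the authors' own DESeq2 comparisons (p-value, FDR, signed fold change) was not used. Library columns name the group and S number but no replicate number.

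Counts were rounded, genes filtered by filterByExpr (minimum count 10, 12009 kept), and normalized by TMM. A quasi-likelihood model with 4 group coefficients was fitted to all 12 libraries in edgeR 4.0.16 (R 4.3.3), with Benjamini-Hochberg adjustment over all tested genes and a threshold of 0.05. CPM use TMM-scaled library sizes, and log2 CPM a prior count of 0.5. With 3 libraries a group, single genes vary widely and a difference that misses the threshold is not shown to be absent. DESeq2 1.42.0, limma-voom (limma 3.58.1) with sample weights, other scalings, no filter, unrounded counts, 2-group models, a length and GC trend removed by splines with 4 degrees of freedom (GENCODE transcripts), and each library left out were alternatives. Leaving out S7 and S8, also with S12, or Rn45s was added after seeing the data. The members and lists were chosen with earlier results of these data known. Named were all 10 members, up to 3 genes with the smallest edgeR p of a list, and genes of a list that edgeR or DESeq2 called. The ratio of Apob to Apoa1, single-library values and Fgf21 were chosen after their values were seen.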

Additional observations from a re-analysis of the deposited data

How the results depend on the processing

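By edgeR 0 of 10 members were called in all 7 comparisons, and this count stayed at 0 under every alternative run except for the diet comparison in Scly KO (4 with limma-voom, 0 to 3 with each library left out, 3 being without S9) and its average over genotypes (4 with limma-voom, 0 to 1, the 1 being without S9, where 2200 of all genes were called). On low selenium the Scly KO value of Apoa4 turned to −0.19 with limma-voom, ran from −0.44 (without S12) to 0.96 with each library left out, and was −0.44 without S7, S8 and S12. That of Apob was −0.05 with the trend over length and GC content removed and −0.03 (without S3) to 0.56 with each library left out. On adequate selenium, leaving out each library gave −0.08 to 0.40 for Apoa1, −0.52 to 0.25 for Apoc3 and −0.08 to 0.77 for Apoc1. Without S7 and S8 Apoa1 had −0.08 and Apoc1 −0.67, and without S12 as well −0.07 and −0.67. For the diet comparison in Scly KO, leaving out S7 and S8 gave 0.03 for Apoc1 and 0.04 for Apoc2, and leaving out S12 as well gave 0.39 for Apoc1 and 0.27 for Apoc3, with 0.02 for Apoc3 averaged over genotypes. The cause of these turns was not tested. The mean share of KO LS was 5.21% without Rn45s in the total. Plain CPM gave means of 1820 for Apoa5 and 11000 for Apoe in KO MS, and of 18600 for Apob and 366 for Apoc2 in KO LS. No paired analysis was possible because the count columns carry no replicate number. DESeq2 gave no adjusted p for 9318 genes for the diet comparison in Scly KO and for 57 in the other comparisons, with 0 members among them.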
